A study of Mus musculus with 3 samples.

Results

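The genes described here are the amino acid transporters of 6 solute carrier families, taken by symbol as all protein-coding genes whose names begin with Slc1a, Slc3a, Slc7a, Slc36a, Slc38a or Slc43a. The rule found 43 genes of 21856 protein-coding genes and 35562 genes in all, and used no measured value. It took in Slc7a6os, an opposite-strand neighbour of Slc7a6 that encodes no transporter, and Slc43a3, which is known for carrying purine bases. RNA was sequenced from 3 mouse myoblast lines, numbered 66, 67 and 72, which form 1 condition, so levels were described and no condition was compared with another. Each line grew from cells purified by FACS from a mouse-mouse chimera and carries the genotype Dmdmdx; Pax7-nGFP, with the mdx mutation corrected by CRISPR/Cas9 through exon skipping that restores the reading frame. The Dmdmdx allele is a nonsense mutation of the dystrophin gene, and Pax7-nGFP drives nuclear GFP in satellite cells. The injected cells were gene-edited iPSCs reprogrammed with a STEMCCA cassette, and the hosts carried Pax7 Cre/ERT2 and Rosa26 lsl-DTA, alleles that ablate PAX7-expressing host cells after tamoxifen. The labels give neither the tamoxifen treatment nor the age of the chimera behind each line, nor do they say which lines share a chimera or an iPSC clone. The spread given here measures only the differences between these samples, which may be technical. The p-values concern only differences between paired genes within these lines. In bulk RNA fewer cells of a type and less RNA per cell cannot be told apart.

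The libraries held between 66972426 and 73274315 estimated counts, and the 43 genes together took between 0.179% and 0.205% of them. Myoblast identity was clear in each line. All 8 myoblast markers reached at least 10 TPM (transcript levels corrected for length and depth, which sum to 1000000 in a library) in every line, and Pax7 lay at 136, 143 and 154 TPM in lines 66, 67 and 72. Of the markers of other cells, 0 of 4 endothelial, 0 of 4 immune and 0 of 4 pluripotent genes reached 10 TPM. Of 6 fibroblast genes Col3a1 alone did, at 145, 205 and 270 TPM in lines 66, 67 and 72, above Pax7 in each line. Dcn, Lum, Dpt and Col1a1 were below 1 TPM in every line. Markers of differentiating muscle were present in all lines, with 3 of 4 at or above 10 TPM and a summed level of 585 TPM in line 66, 892 TPM in line 67 and 1048 TPM in line 72.

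Amino acids cross the plasma membrane on carriers that divide the work. The heavy chain encoded by Slc3a2, also called CD98hc, spans the membrane and brings a light chain of the Slc7a family to the cell surface, where the light chain exchanges one amino acid for another. Carriers of the Slc38a and Slc1a families couple uptake to sodium and so fill the glutamine and neutral amino acid pools that the exchangers trade for leucine. The cationic carriers Slc7a1, Slc7a2 and Slc7a3 bring in arginine and lysine, while some Slc36a carriers move small amino acids together with protons. Proliferating myoblasts need this supply for protein synthesis, and leucine, arginine and glutamine also feed the sensors of the growth kinase mTORC1. When amino acids run short, the transcription factor ATF4 is known to raise several of these carriers through C/EBP-ATF response elements.

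Sequences bear on 2 of the genes before their levels are given. Slc7a2 has 2 mutually exclusive exons, both on the plus strand of chromosome 8 in GRCm38, which encode a short stretch that distinguishes the 2 carrier isoforms CAT2A and CAT2B, proteins known to differ in their affinity for arginine. The upstream exon, chr8:40908056-40908195, has 140 bases and the downstream exon, chr8:40908398-40908534, has 137. In a global alignment 84 of 140 positions were identical (60%). The exons are shown because the transcripts that hold them differed in estimated level, and capitals mark bases that differ between the exons.
Slc7a2 upstream exon: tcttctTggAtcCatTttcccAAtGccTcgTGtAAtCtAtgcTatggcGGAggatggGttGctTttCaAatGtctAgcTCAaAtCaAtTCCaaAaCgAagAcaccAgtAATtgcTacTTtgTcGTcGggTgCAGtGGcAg
Slc7a2 downstream exon: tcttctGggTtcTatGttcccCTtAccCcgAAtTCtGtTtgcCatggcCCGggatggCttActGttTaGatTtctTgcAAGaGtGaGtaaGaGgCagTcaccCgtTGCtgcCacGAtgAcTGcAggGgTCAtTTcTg

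Slc1a5 encodes ASCT2, a sodium-dependent exchanger of glutamine and other neutral amino acids, and its most abundant listed transcript keeps an intron. The intron is the seventh of 8 coding introns on the plus strand of chromosome 7, chr7:16795953-16796023, and has 71 bases. It is printed in capitals between 20 bases of coding exon on each side, because the level given for Slc1a5 depends on whether the transcript that holds it is counted.
Slc1a5 kept intron: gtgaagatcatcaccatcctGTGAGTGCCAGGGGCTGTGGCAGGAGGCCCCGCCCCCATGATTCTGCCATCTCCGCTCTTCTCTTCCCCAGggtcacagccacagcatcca

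The levels of the transporter genes ranged from above 100 TPM to 0. At least 1 TPM was reached in every line by 22 of 43 genes (51.2%), against 51.9% of all protein-coding genes, and at least 10 TPM by 13 genes (30.2%), against 36.3%. A further 9 genes had a mean from 1 to under 10 TPM, and 21 had a mean below 1 TPM. The median level of the 43 genes on the scale of log2(TPM + 1) was 1.22, 1.66 and 1.56 in lines 66, 67 and 72, or 1.48 ± 0.23 (SD, n = 3), close to the 1.60 ± 0.058 of all 21856 protein-coding genes. Over the 39 genes detected in 1 line or more it was 1.85 ± 0.064, against 3.05 ± 0.034 for the 17929 protein-coding genes detected in the same way. The Slc38a family took 36.2% ± 1.60 of the summed TPM of the 43 genes, the Slc7a family 28.9% ± 0.78 and the Slc3a family, here almost wholly Slc3a2, 22.6% ± 2.14. Every Slc7a share given here includes Slc7a6os, which is no transporter and lay at 42.4, 39.3 and 41.6 TPM. The Slc1a family took 8.04% ± 0.12, the Slc43a family 3.03% ± 0.50 and the Slc36a family 1.24% ± 0.094. In CPM (counts scaled to 1000000 a library, with no correction for length) the Slc3a share was 8.52% and the Slc36a share 1.95%, and with complete coding transcripts only, a choice made after the values were seen, the Slc1a share was 4.03%. In TPM the 3 highest genes, Slc3a2, Slc38a2 and Slc7a5, held 47.1% ± 4.03 of the total.

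**Figure D1:**
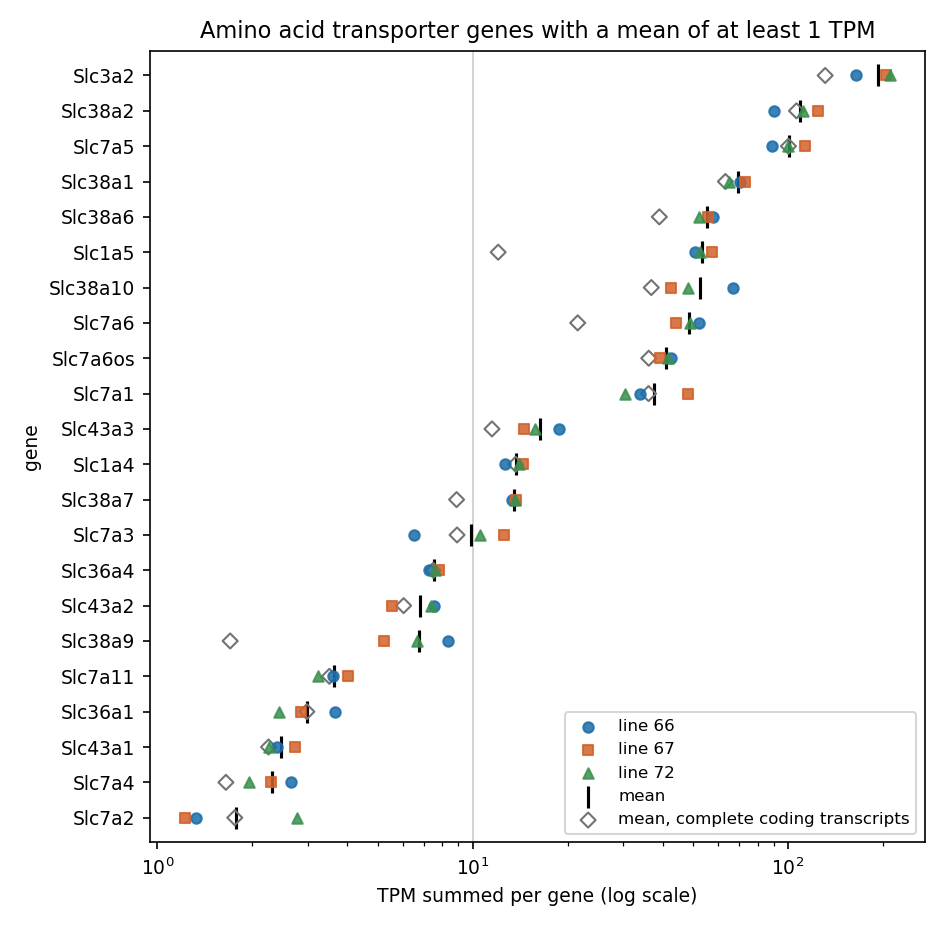
Level of the 22 genes that averaged at least 1 TPM, as TPM summed per gene on a log axis, with 1 marker for each line, a bar for the mean and an open diamond for the mean over transcripts with a complete coding sequence. Slc3a2 lies highest at 165 to 209.8 TPM, and the diamonds of Slc1a5, Slc7a6 and Slc38a9 lie far to the left of the lines' markers.

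The heavy chain had the highest TPM of all. Slc3a2 (ENSMUSG00000010095, chr19:8706882-8723369 in GRCm38) lay at 165, 204 and 209.8 TPM in lines 66, 67 and 72, a mean of 193 ± 24.6 TPM, above 95.6% of the detected protein-coding genes. Its lowest value, in line 66, was above every value of the next gene. With complete coding transcripts only it was not, at 116 TPM in line 66 against 122 TPM of Slc38a2 in line 67, and in CPM Slc38a2, Slc38a1, Slc7a5 and Slc7a1 averaged above Slc3a2. Among the light chains, Slc7a5 (ENSMUSG00000040010, chr8:121881150-121907694), which encodes LAT1, the leucine carrier of proliferating cells, was the highest at 89.1, 113 and 100.1 TPM. Line 66 was the lowest for both Slc3a2 and Slc7a5. Slc7a6, which encodes a light chain that exchanges cationic for neutral amino acids, followed at 52.3, 44.2 and 48.7 TPM, with line 66 the highest. Slc7a11, the cystine and glutamate exchanger xCT, was lower at 3.61, 4.01 and 3.23 TPM.

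The other partners of Slc3a2 were scarce. Slc7a7 lay at 0.493, 0.662 and 0.676 TPM, and Slc7a8, which encodes LAT2, at 0.128, 0.25 and 0.215 TPM. Slc7a10 had 3 counts in line 72 and none in the other lines. Of the summed TPM of the 6 light chains, Slc7a5 took 61.2%, 69.7% and 65.4% in lines 66, 67 and 72. The ratio of Slc3a2 to that sum was 1.13, 1.26 and 1.37, a mean of 1.25 ± 0.12 (SD, n = 3). In CPM, in which the shorter transcripts of Slc3a2 weigh less, it was 0.402, 0.423 and 0.431. Over transcripts with a complete coding sequence alone, the ratio was 0.998, 1.05 and 1.07 (1.04 ± 0.037), so an excess of heavy over light chain RNA depended on the measure. The second heavy chain, Slc3a1, which pairs with Slc7a9 in kidney and gut, lay at 0.184 to 0.203 TPM, and Slc7a9 had a single count over the 3 libraries.

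Of the cationic carriers, Slc7a1 (ENSMUSG00000041313, chr5:148327410-148399904), which encodes the widely expressed CAT1, was the highest, at 33.9, 48.3 and 30.4 TPM in lines 66, 67 and 72. Line 67 stood above the others. Slc7a3 (ENSMUSG00000031297, chrX:101079210-101086020), which encodes CAT3, lay at 6.53, 12.6 and 10.5 TPM, with line 66 the lowest. Slc7a2 (ENSMUSG00000031596, chr8:40862396-40922308) lay at 1.33, 1.23 and 2.76 TPM, and here line 72 was the highest. Slc7a1 and Slc7a3 were thus highest in line 67 and Slc7a2 in line 72. The related gene Slc7a4 lay at 2.66, 2.29 and 1.96 TPM, and Slc7a14 at 0.0483 to 0.0637 TPM.

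The sodium-coupled Slc38a carriers of glutamine and small neutral amino acids held 5 of the 13 genes that averaged at least 10 TPM. Slc38a2 (ENSMUSG00000022462, chr15:96687392-96699730), which encodes SNAT2, a carrier known to be induced by amino acid shortage, was the highest at 89.9, 125 and 112 TPM. Slc38a1, which encodes SNAT1 and lies beside it at chr15:96571418-96642913, was at 70.4, 72.9 and 65.1 TPM. The third gene of that stretch of chromosome 15, Slc38a4, had an average of 0.985 TPM. Slc38a6, a less studied member, was at 57.7, 55.7 and 52.3 TPM. Slc38a10, also less studied, was at 67.0, 42.5 and 48.1 TPM, with line 66 above the other lines.

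The lysosomal members of the family were lower. Slc38a7, the lysosomal glutamine exporter, was at 13.3, 13.7 and 13.6 TPM. In TPM over all transcripts it had the lowest coefficient of variation of the 22 genes, at 1.32%. Over transcripts with a complete coding sequence it was at 8.32, 9.02 and 9.31 TPM, so the low spread depended on the measure. Slc38a9, the lysosomal arginine sensor that acts on the Rag GTPases, was at 8.36, 5.25 and 6.64 TPM. The system N carriers of liver and brain were nearly absent, with Slc38a3 at 0.113 to 0.186 TPM and 0 counts of Slc38a5 in every line. Slc38a8 and Slc38a11 did not exceed 6 counts in any line.

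In the Slc1a family the 2 neutral amino acid exchangers were above 10 TPM in every line and the glutamate carriers were low. Slc1a5 (ENSMUSG00000001918, chr7:16781340-16798274) lay at 50.8, 57.4 and 52.4 TPM, and Slc1a4, which encodes ASCT1, a carrier of serine, alanine and cysteine, at 12.7, 14.4 and 14.0 TPM. Their coefficients of variation over the lines were 6.45% and 6.58%. Slc1a3 reached 0.486 to 1.15 TPM and Slc1a6 0.313 to 0.672 TPM. Slc1a1, Slc1a2 and Slc1a7, the other carriers of glutamate in nerve, glia and retina, stayed below 0.05 TPM in every line.

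The Slc36a family was represented by Slc36a4 at 7.24, 7.82 and 7.60 TPM and by Slc36a1, which acts in lysosomes, at 3.65, 2.85 and 2.43 TPM. Their neighbours Slc36a2 and Slc36a3, which lie next to Slc36a1 on chromosome 11, had 0 counts in all lines and 1 count in line 66. In the Slc43a family, Slc43a3 lay at 18.8, 14.6 and 15.7 TPM. The leucine carrier LAT4, encoded by Slc43a2, was at 7.56, 5.52 and 7.39 TPM, and LAT3, encoded by Slc43a1, at 2.39, 2.73 and 2.26 TPM. Slc7a6os, which is no transporter, was at 42.4, 39.3 and 41.6 TPM.

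In the order of levels many neighbours overlapped. Of the 21 neighbouring pairs among the 22 genes with at least 1 TPM, 13 had ranges over the lines that overlapped. In TPM over all transcripts Slc3a2 stood apart from Slc38a2, while Slc38a2 and Slc7a5 overlapped although Slc38a2 was the higher within 3 of 3 lines, as was Slc36a1 over Slc43a1. Slc38a1 lay below Slc7a5 and above Slc38a6 with no overlap. The run from Slc38a6 through Slc1a5 and Slc38a10 to Slc7a6 overlapped at each step, and so did the run from Slc7a3 to Slc38a9 and the run from Slc7a11 to Slc7a2.

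At the bottom, 9 genes had at most 3 counts in every line. Slc36a2, Slc38a5, Slc7a12 and Slc7a15 had 0 counts throughout. A count of 0 allows up to 3 counts. In CPM that limit ranged from 0.0409 in line 66 to 0.0448 in line 67, and it covers counting error only. Slc7a13, Slc1a7, Slc7a10, Slc7a9 and Slc36a3 had between 0 and 3 counts in each line.

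Related carriers were compared within each line as 7 pairs, on the difference of log2(TPM + 1). Slc7a5 exceeded Slc7a8 by 6.40 ± 0.099 (SD, n = 3), Slc7a6 exceeded Slc7a7 by 4.94 ± 0.20 and Slc7a1 exceeded Slc7a2 by 3.81 ± 0.71. In each of these pairs the same gene was the higher in all 3 lines. Slc1a5 exceeded Slc1a4 by 1.89 ± 0.052, Slc43a2 exceeded Slc43a1 by 1.17 ± 0.31 and Slc38a2 exceeded Slc38a1 by 0.63 ± 0.24. Slc36a1 minus Slc36a4 was -1.12 ± 0.26. All 7 differences had the same sign in 3 of 3 lines, which gave p = 0.25 for each in TPM in a two-sided exact sign-flip permutation test, also after Benjamini-Hochberg adjustment over the 7 pairs, and 0.25 is the smallest value that 3 lines can give. Over transcripts with a complete coding sequence the difference of Slc1a5 and Slc1a4 turned to -0.17, and the other 6 kept their sign. In CPM the difference of Slc38a2 and Slc38a1 fell to 0.050, with p = 1 in the exact sign-flip test.

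The level of several genes depended on partial or noncoding transcripts. Of the 13 genes that averaged at least 10 TPM, 5 took more than 90% of their TPM from transcripts with a complete coding sequence, and 2, Slc1a5 and Slc7a6, took less than 50%. For Slc1a5 the share was 22.5% ± 1.09 (SD, n = 3). The transcript that keeps the intron shown above, Slc1a5-202, lay at 22.0, 25.7 and 21.4 TPM, and the coding transcript Slc1a5-201 at 12.0, 12.9 and 11.2 TPM, so the intron-holding form was estimated the higher in every line. The transcripts have 2807 and 2764 bases and can share reads, and no reads on the intron itself were counted. A short noncoding transcript of 613 bases, Slc1a5-204, added 13.4, 15.5 and 16.5 TPM. For Slc7a6 the complete transcript carried 44.5% ± 2.75 of TPM and 71.2% ± 2.13 of the estimated counts.

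In Slc3a2 the complete transcripts carried 68.1% ± 4.67 of TPM but 94.7% ± 1.24 of the counts. The partial transcript Slc3a2-203, of 378 bases, was listed at 46.9, 52.4 and 62.0 TPM from 431, 435 and 532 counts, since few counts on a short transcript give a large TPM. Below 10 TPM, Slc38a9 had the lowest share of the 22 genes after Slc1a5, with 25.7% ± 3.50 of TPM and 78.0% ± 1.61 of counts from its complete transcript. Slc7a5, Slc38a2, Slc7a1 and Slc1a4 were hardly touched, with complete shares of 99.5%, 97.7%, 96.2% and 100.0% of TPM.

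**Figure D2:**
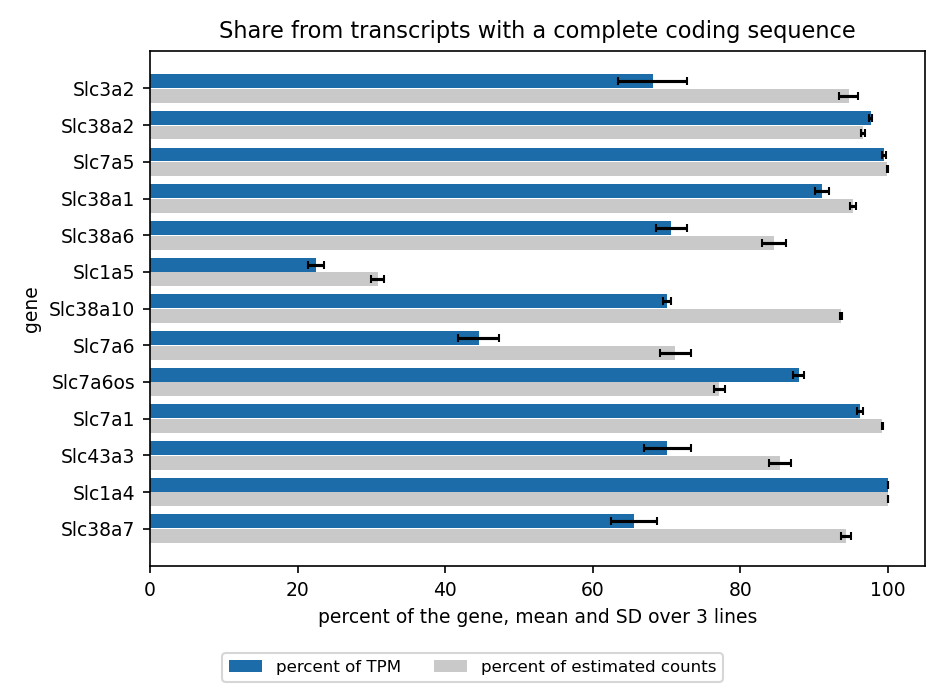
Percent of each gene's TPM and of its estimated counts that came from protein-coding transcripts with a complete coding sequence, for the 13 genes averaging at least 10 TPM, as mean and SD over 3 lines. Slc1a5 is low on both measures (22.5% and 30.9%), while Slc3a2, Slc38a7 and Slc38a10 are low in TPM and above 90% in counts.

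The estimated levels of transcripts with each alternative exon of Slc7a2 differed between lines, which has no test. Transcripts with the upstream exon lay at 0.709, 0.702 and 2.09 TPM in lines 66, 67 and 72, and transcripts with the downstream exon at 0.618, 0.523 and 0.638 TPM. The upstream exon accounted for 53.4%, 57.3% and 76.6% of the 2 together, and the upstream form held most of the higher estimate of Slc7a2 in line 72. These shares rest on 221, 209 and 619 estimated counts for the upstream form and on 225, 173 and 199 for the downstream form. They are estimates for whole transcripts of 3677 to 7910 bases that can share reads, and no reads on the exons themselves were counted. Line 72 also had the highest summed level of differentiating muscle markers and the highest level of Col3a1, whose part in the result was not tested. Other genes had isoform estimates that moved between lines while the gene did not. Slc1a4-201 held 6.42%, 31.9% and 0.0240% of Slc1a4, and Slc38a7-204 held 1.22%, 8.54% and 40.5% of Slc38a7. In both cases the other transcript has nearly the same length (3926 and 3872 bases for Slc1a4, 3333 and 3315 bases for Slc38a7). Reads shared between such transcripts were not measured.

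Between the lines, 0 of the 13 genes averaging at least 10 TPM were more than 2-fold apart in any pair of lines, on the log2(TPM + 1) scale, where 2.17% of all 8428 genes at that level were (1.19% between lines 66 and 67, 1.31% between 66 and 72 and 0.866% between 67 and 72). Among genes averaging at least 1 TPM it was 0 of 22 genes, against 4.05% of 12528. At that background fewer than 1 gene in either group would be called, so a count of 0 is no result about these genes. At 1.5-fold, 2 of 13 genes were called, against 9.03% of all genes. They were Slc7a1 between lines 67 and 72 (3.32% of all genes) and Slc38a10 between lines 66 and 67 (5.16%). Each line is 1 sample, so these counts have no replicate check.

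The spread was close to that of other genes. The median biological coefficient of variation, from an edgeR fit across all genes, was 0.118 for the 13 genes and 0.121 for all 8428. Slc7a1 (0.194) and Slc38a10 (0.190) varied most, above 92.3% and 91.7% of genes, and Slc38a1 least (0.103). Slc38a7, with the lowest coefficient of variation in TPM, was at 0.122 in this fit, above 51.5% of genes. In the fit that took in genes averaging at least 1 TPM, Slc7a2 (0.327) and Slc7a3 (0.278) were the highest of the 22 genes, above 94.2% and 90.1% of genes. The log2 ratio of each line to the average of the others had a median of -0.030, 0.10 and -0.0046 for the 13 genes in lines 66, 67 and 72, and -0.054, -0.0098 and 0.062 for all genes.

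Some chromosomes had medians away from 0 in single lines, so the values of transporter genes are given beside them. In line 66 the median log2 ratio over chromosome 11 was 0.27, where most chromosomes lay below 0. Slc38a10 (chr11:120103960-120151346) was 0.56 in line 66, and 0.29 relative to its chromosome. Slc1a4, also on chromosome 11, went the other way, with -0.15 in line 66 and -0.42 relative to its chromosome. Below 10 TPM, Slc36a1 on the same chromosome was 0.36 and Slc43a2 0.21 in line 66, or 0.087 and -0.058 relative to the chromosome, so both lay close to its median. Slc7a1 is on chromosome 5, which was not shifted in line 67 (-0.0087), and was 0.57 there.

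**Figure D3:**
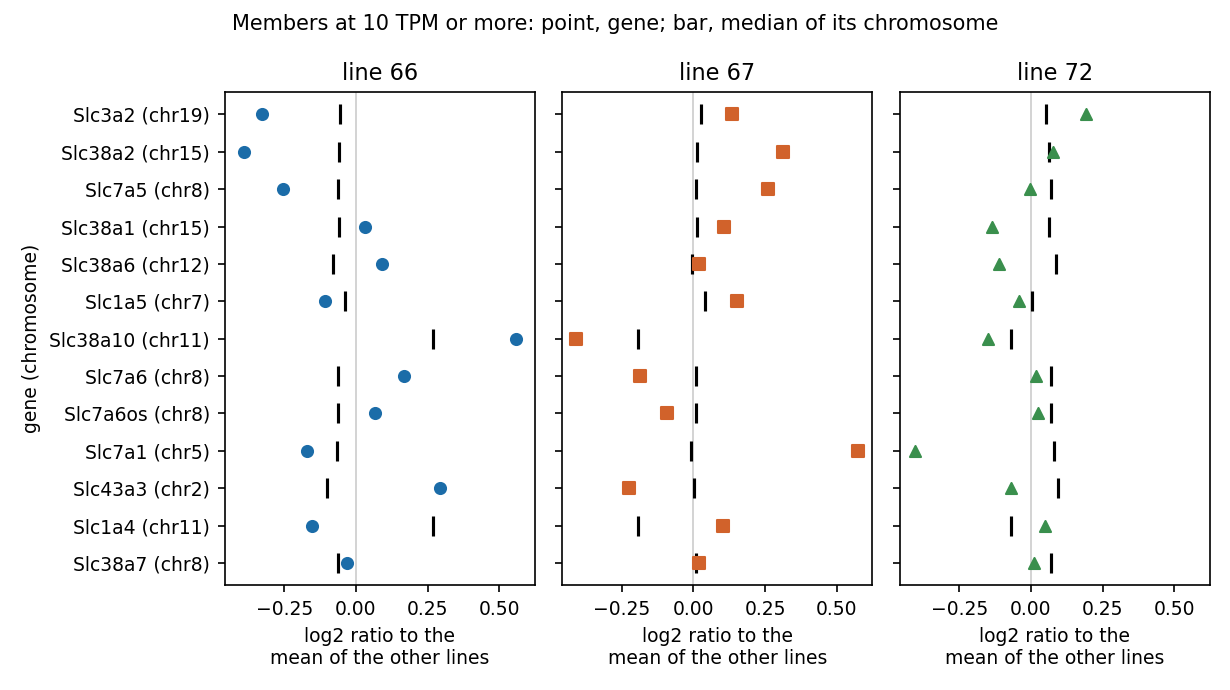
Log2 ratio of each line to the average of the remaining lines for the 13 genes averaging at least 10 TPM, with a black bar for the median of all such genes on the same chromosome. Slc38a10 in line 66 (0.56) and Slc7a1 in line 67 (0.57) lie farthest to the right, and the chromosome 11 bar in line 66 lies at 0.27.

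The 3 genes highest in TPM were each lowest in line 66, where 39.0% of all genes lay above the average of the other lines. Slc3a2, Slc38a2 and Slc7a5 had values there below those of their chromosomes, with log2 ratios of -0.33, -0.39 and -0.25. Their chromosomes, 19, 15 and 8, had medians of -0.056, -0.060 and -0.061 in that line. In line 72 they parted in TPM over all transcripts, with ratios of 0.19, 0.076 and -0.0046. Over complete coding transcripts Slc3a2 lay at 116, 146 and 132 TPM in lines 66, 67 and 72. In CPM it lay at 144, 178 and 161. On both measures line 67 was the highest for Slc3a2, as it was for Slc38a2 and Slc7a5 in TPM. Slc7a3 was -0.73 in line 66, on an X chromosome with a median of -0.12. Its counts were 736, 1342 and 1040, and the ratio of its CPM in line 67 to that in line 66 was 1.99, with a 95% interval of 1.82 to 2.19 that covers counting error only. The summed level of differentiating muscle markers and the level of Col3a1 were lowest in line 66 as well. Their part in these differences was not tested.

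Among the genes averaging below 1 TPM, only Slc38a4 was over 2-fold apart between lines on the log2(TPM + 1) scale. It encodes SNAT4, is known as an imprinted gene expressed from the paternal copy, and was chosen for description after its values were seen. It lies at chr15:96994820-97055956 and had 0.288, 2.16 and 0.507 TPM in lines 66, 67 and 72, from 24, 282 and 70 counts. Line 67 was 7.50 times line 66 in TPM and 12.9 times in CPM, with a counting interval of 8.46 to 20.4 for the CPM ratio. It was 4.23 times line 72 in CPM (3.24 to 5.57). With no filter on level, 2.34% of 23222 genes above 0 in at least 2 lines were over 2-fold apart on that log2 scale. Of the 35 genes of the symbol rule among them, 1 was, Slc38a4 (2.86%). That is close to the share of all genes, so the count is no result about these genes. On plain TPM, which lets low counts spread widely, it was 27.2% of genes and 6 of those 35. Slc1a3, Slc1a6, Slc7a2, Slc38a8 and Slc38a11 were added.

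**Figure D4:**
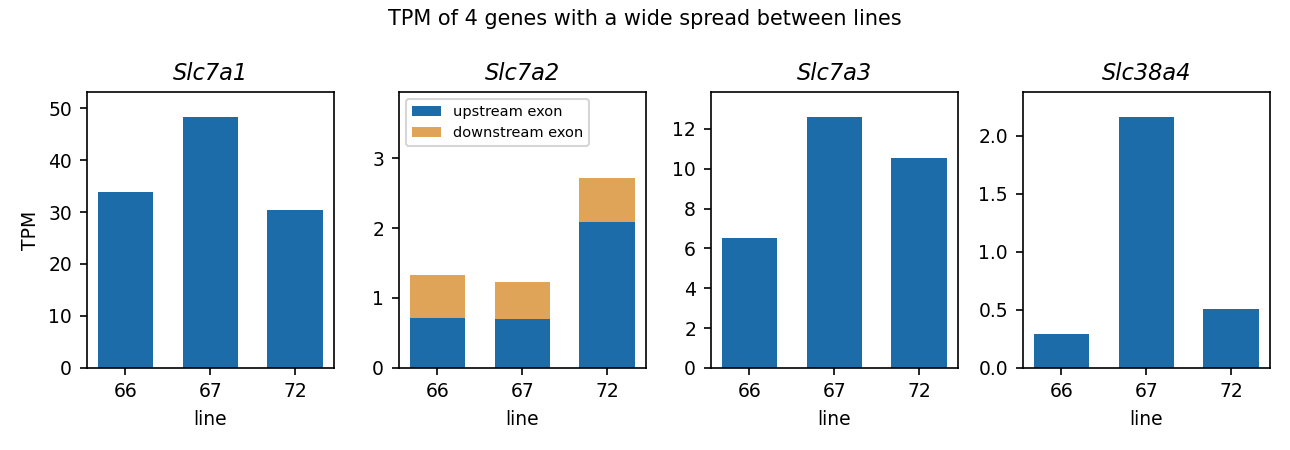
TPM of Slc7a1, Slc7a2, Slc7a3 and Slc38a4 in each line, on linear axes that start at 0 and differ between panels, with the bars of Slc7a2 split by its alternative exon. Line 67 is highest for Slc7a1 (48.3), Slc7a3 (12.6) and Slc38a4 (2.16), and line 72 for Slc7a2, where the upstream exon reaches 2.09 TPM.

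The genes around the transporters were described from 8 lists of general knowledge, which hold 138 distinct genes. In the list of ATF4, its targets and the kinase gene upstream of it, 25 of 29 genes were at or above 10 TPM in every line. The share of all protein-coding genes was 36.3%, and no list was tested against it. Phgdh, the first enzyme of serine synthesis, lay at 677, 608 and 555 TPM, the asparaginyl-tRNA synthetase gene Nars at 323, 361 and 401 TPM, and Atf4 itself at 287, 342 and 333 TPM. In amino acid sensing by mTORC1, 26 of 31 genes reached 10 TPM in every line, led by Sec13 (143 to 178 TPM), Rheb (102 to 123 TPM) and Lamtor1 (91.5 to 98.7 TPM). These genes encode a subunit of the GATOR2 complex, the GTPase that activates mTORC1 and a subunit of the Ragulator.

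Enzymes that use the transported amino acids were counted in the same way. Of the glutamine and glutamate enzymes 8 of 11 reached 10 TPM in every line, among them Got2 (157 to 177 TPM) and Glud1 (149 to 184 TPM). Of the serine, glycine and proline genes 9 of 10 did, led by Phgdh, Psat1 (256 to 321 TPM) and Shmt2 (163 to 197 TPM). Of the arginine, polyamine and creatine enzymes 7 of 12 did, led by Ass1 (398 to 459.5 TPM), Odc1 (381 to 414 TPM) and Sms (149 to 160.2 TPM), and of the branched-chain breakdown enzymes 6 of 8 did, led by Dld (133 to 175 TPM), Bcat1 (56.3 to 71.0 TPM) and Bckdk (43.9 to 47.3 TPM). Ass1 remakes arginine from citrulline, and Odc1 turns ornithine into the polyamine putrescine.

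In the list of glutathione and cystine use, 12 of 14 genes reached 10 TPM in every line, led by Gpx4 (516 to 581 TPM), Txnrd1 (269 to 375 TPM) and Gclm (125 to 164 TPM), beside a cystine carrier, Slc7a11, at 3.23 to 4.01 TPM. Over all lists, 95 genes averaged at least 10 TPM and 2 were over 2-fold apart between lines (2.11%), close to the 2.17% of all genes. Both belong to this list. Nqo1, a quinone reductase under control of the factor NRF2, lay at 14.1, 38.3 and 21.9 TPM, with line 67 the highest. Cth, which makes cysteine from cystathionine, lay at 5.18, 8.11 and 17.5 TPM, with line 72 the highest.

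Of 30 carriers of other families, 15 reached 1 TPM and 8 reached 10 TPM in every line, where 51.9% and 36.3% of all protein-coding genes did. The taurine carrier Slc6a6 lay at 175, 262 and 193 TPM, the creatine carrier Slc6a8 at 40.9, 76.0 and 54.1 TPM and the mitochondrial aspartate and glutamate carrier Slc25a12 at 24.0, 34.1 and 30.9 TPM. Line 67 was the highest for all 3.

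**Figure D5:**
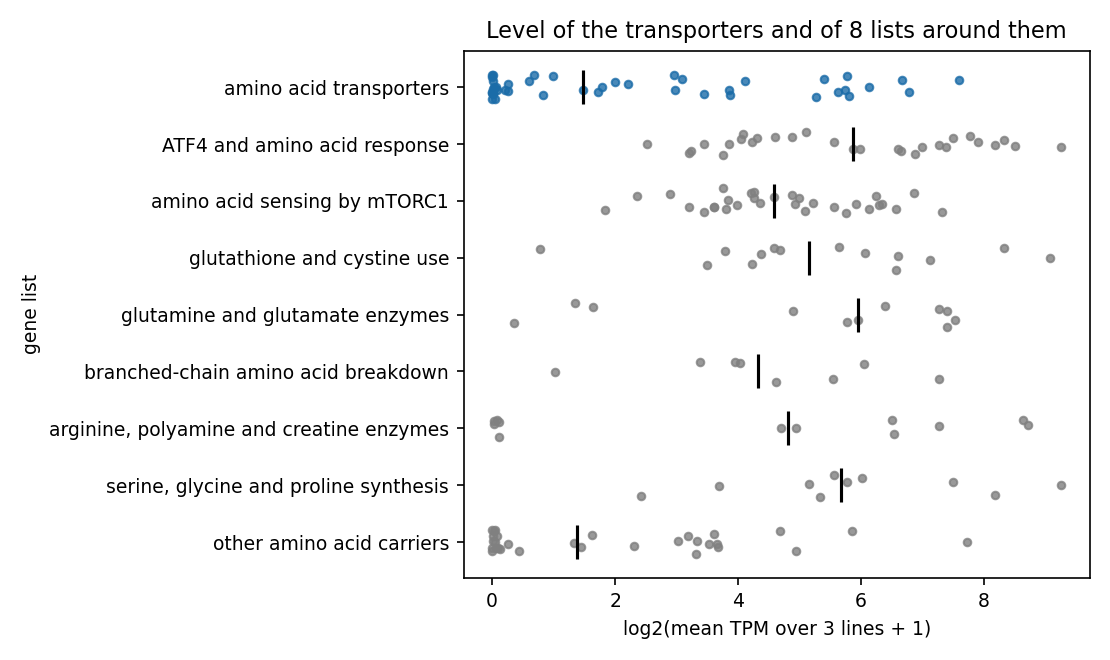
Level of the 43 genes taken by symbol, Slc7a6os included (blue), and of the genes of 8 surrounding lists (grey), as log2 of the mean TPM over 3 lines plus 1. A black bar marks the median of each list, and points are spread vertically at random for visibility. The 43 genes (median 1.47) and the other amino acid carriers (1.39) include many genes near 0, while the other 7 lists have medians from 4.33 to 5.96.

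Promoters were searched for the letters TGATGNAAN, the core of the C/EBP-ATF response element, on both strands, since members of this family are known ATF4 targets. RefSeq promoters of GRCm38.p6, from 250 bases before to 50 bases after a start, were given for 32 of the 43 genes. The letters were found for 3 of the 32, Slc1a4, Slc7a11 and Slc7a7, against 4.50% of 27025 genes with a promoter and 3.95% of 32851 promoters. In Slc7a11 they occurred on both strands, 66 and 48 bases before the start, and in Slc1a4 they began 5 bases before it. The stretches of both are shown on the minus strand, which is that of the genes, with the letters in capitals.
Slc7a11, chr3:50443627-50443705: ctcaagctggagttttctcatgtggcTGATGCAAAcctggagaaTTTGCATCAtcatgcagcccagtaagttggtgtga
Slc1a4, chr11:20332684-20332744: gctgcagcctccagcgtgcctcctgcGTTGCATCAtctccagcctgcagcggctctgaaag

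The levels of the 3 genes did not stand together, with Slc1a4 at 13.7 ± 0.90 TPM, Slc7a11 at 3.62 ± 0.39 TPM and Slc7a7 at 0.610 ± 0.10 TPM (SD, n = 3). Slc3a2 and Slc38a2 did not hold the letters in the windows given, and Slc7a5 was not among the 32 genes, which says nothing of elements farther away.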

How the data were processed

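For each transcript of 3 libraries, the authors deposited an estimated count (expected count, in which a read that fits several transcripts is divided among them) and a TPM value, which divides that count by the effective length and scales to 1000000 per library. The submitters' processing notes name bcl2fastq 2.20, fastp 0.20, kallisto 0.46.1 and GRCm39. The annotation, strand setting and bias correction are not given in the sources used here, and effective lengths exceeded the length for 18.2% to 19.4% of transcripts. The library kit keeps strand and selects poly-A RNA.

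Identifiers were matched to GENCODE M21 (GRCm38), which held 120686 of 121798 transcripts, and both values were summed per gene. Unmatched transcripts held 0.493% to 0.535% of counts. Coordinates belong to GRCm38, not to the submitters' build. Of 32 genes with over 3 counts in every line, 17 had counts within 0.05 of whole numbers in every line. No condition was compared. Levels were given as TPM, and lines were compared on log2(TPM + 1) (pseudocount 1) for genes averaging at least 10 TPM. Estimated counts were rounded to whole numbers for the intercept-only edgeR fit. That fit was also run on simulated data with the same spread for every gene, which cannot check the values of single genes. Intervals for ratios of counts are exact 95% intervals. Genes averaging at least 1 TPM were named with the value in every line, together with the 3 highest genes of each surrounding list and those over 2-fold apart, apart from 1 gene that is not reported here. Members and lists were chosen with earlier results of these data known. The alternatives were CPM, other pseudocounts, filters and fold thresholds, TMM scaling, DESeq2 size factors, leaving out each line, and, added after the data were seen, complete coding transcripts only. Work was done in R 4.3.3 (DESeq2 1.42.0 for size factors, edgeR 4.0.16) and Python 3.11.15 (pandas 2.3.3 and numpy 2.4.6, with Biopython 1.88 for the alignment, scipy 1.17.1 for intervals and matplotlib 3.10.9 for plots).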

Additional observations from a re-analysis of the deposited data

How the results depend on the processing

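No paired analysis was possible because all 3 samples belong to 1 condition, with no second group to pair. The 7 gene pairs were compared within each line.

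The count of genes at 1 TPM in every line (22) was 13 at a threshold of 10 TPM, and within 1.5 times of 22 under CPM, 0.1 TPM, complete transcripts only and with each line left out. The median level of the 43 genes (1.48) was 0.91 with a pseudocount of 0.1, 2.27 in CPM and 4.004 among genes averaging at least 1 TPM. Against 0 genes over 2-fold apart, 1 was found with no filter, 6 with neither filter nor pseudocount (an alternative chosen after the data were seen) and 2 at 1.5-fold. In CPM, which is not corrected for length, the shares were 6.80% for Slc1a, 8.52% for Slc3a, 33.8% for Slc7a, 1.95% for Slc36a and 46.2% for Slc38a. With complete coding transcripts only, an alternative chosen after the data were seen, they were 4.03%, 19.99%, 32.1%, 1.60% and 39.2%. The ratio of Slc3a2 to its light chains (1.25) was 0.419 in CPM and 1.04 with complete transcripts. The difference of Slc1a5 and Slc1a4 reversed from 1.89 to -0.17 with complete transcripts only. For the surrounding lists, 2 genes over 2-fold apart became 4 at a mean of 1 TPM (Gdf15 and Fgf21 added) and 1 without any 1 line, with Cth left out of the count without line 72 and Nqo1 without line 66 or 67. The cause of these changes was not tested, beyond what each alternative counts.

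For single genes, CPM moved 31 of 43 levels by more than the SD over the lines, a pseudocount of 0.1 moved 29 and complete transcripts moved 16. Estimated counts in place of TPM moved 12 of 14 shares of leading transcripts. Depth limits the genes under 3 counts, and a set of 3 lines cannot pass a threshold of 0.05 in the sign-flip test.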
